A study of Mus musculus with 4 samples.

Results

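The 42 genes described here act in building ribosomes or in the metabolism of growing cells, and all 42 were found by name among the 22056 genes of both expression tables. They fall into 6 role groups. The groups are RNA polymerase I subunits (3 genes), nucleolar scaffold, chaperone and GTPase proteins (6 genes), rRNA modification factors (9 genes), factors of the small subunit processome and of 40S maturation (10 genes), 60S maturation factors (8 genes), and growth genes of one-carbon, polyamine, nucleotide and translation metabolism (6 genes).

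Ribosomes are assembled in the nucleolus. RNA polymerase I copies the ribosomal DNA there, small nucleolar RNPs modify the transcript, and a large set of assembly factors cuts and folds it into the 40S and 60S subunits. T cells enlarge their nucleoli and raise these genes when an antigen receptor and costimulation drive them from rest into growth, and the transcription factor MYC is a known activator of many of them.

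The cells are mouse regulatory T (Treg) cells, a CD4+ lineage that holds immune responses in check and needs the transcription factor Foxp3. Live cells carrying CD4, TCRβ and the reporter YFP were sorted from C57BL/6 mice at more than 95% purity and run on the 10x Genomics droplet platform for single-cell RNA sequencing. The labels name 4 groups: spleen at steady state from ICOS WT mice, spleen at steady state from ICOS-deficient mice (titled ICOS FC), the draining lymph node of the neck (cervical, LN) taken 1 day after an oxazolone challenge of ICOS WT mice, and the same lymph node and challenge from ICOS FC mice. Oxazolone is a hapten that provokes contact hypersensitivity, and ICOS, a relative of CD28, costimulates activated T cells. The sources used here do not give the driver of the deletion, the ages or the number of animals pooled. Each group was 1 library, so no difference was tested and none has a replicate check. Brackets hold 95% intervals for counting error alone. All levels are UMIs (unique molecular identifiers, 1 per captured transcript) in each 1000000 UMIs of the library or cluster (CPM), and values in rows of 4 follow the order spleen ICOS WT, spleen ICOS FC, LN ICOS WT, LN ICOS FC.

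The libraries held 4995, 5917, 1897 and 2066 cells with medians of 5044, 4361, 6591 and 6789 UMIs per cell, and 27183614, 28256866, 15045805 and 17330489 UMIs in all. All 6 Treg markers were detected in each library and summed to 1814, 2091, 2979 and 3653 CPM, with Foxp3 itself at 53.2, 59.0, 72.2 and 70.7 CPM. The 6 CD8 T and NK cell markers summed to 21.9, 21.7, 52.3 and 41.3 CPM. Most of these UMIs were of Cd8b1, at 484, 527, 527 and 478 UMIs, and Ncr1 had 0 to 6. Spleen cluster 4 stood apart with Foxp3 at 2.17 and 6.38 CPM (ICOS WT and ICOS FC). It held 737 and 655 cells, 14.8% and 11.1% of the spleen libraries. Its Treg markers summed to 197 and 218 CPM, against 964 CPM or more in the other spleen clusters. LN cluster 7 held 542 and 533 CPM of the CD8 T and NK cell markers. Icos, the targeted gene, was at 112, 258, 599 and 928 CPM, higher in both libraries labelled ICOS FC. Tags outside the deleted stretch would check nothing, and whether the counted Icos tags lie outside it was not tested. An exchange of the labels, which would turn every ratio between them, was not tested either. ICOS WT and ICOS FC below therefore mean the libraries so labelled. The 2 LN libraries shared 30 cell barcodes, in 27 of which the UMI counts of the pair differed at least 20-fold, and other pairs of libraries shared 1 to 10. The main sums, counts of members and cluster values are also given without the cells with shared barcodes (22, 15, 46 and 34 cells) where this is said. All other values, among them those of single genes and the sums of role groups, include these cells unless said otherwise.

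Promoter sequences are shown because most of the 42 genes, though not Mthfd2, moved together across clusters, as described below. A further reason is that the E-box CACGTG is the sequence bound by MYC with its partner MAX. Windows from 250 bases before to 50 bases after the transcription start were matched by symbol for 36 of the 42 genes (RefSeq, build GRCm38.p6). The windows of Npm1, Srm, Fbl, Rrp12, Bop1 and Rrs1 were not used here. CACGTG, which reads the same on both strands, was found for 9 of the 36 genes (25.0%). The share was 8.09% among 27025 genes of the promoter table and 12.7% among 4521 expressed other genes (20 CPM or more in a library). The genes with the motif were Wdr43, Mybbp1a, Nop2, Dnph1, Pes1, Pus7, Ltv1, Tsr1 and Utp20, each with 1 E-box, and all 9 E-boxes began within 100 bases of the start. How often the E-boxes of other genes lie as near the start was not counted. The windows of Wdr43, the motif holder with an early role in 40S assembly, and of Mybbp1a, Nop2 and Dnph1 are printed 5′ to 3′ with the E-box in capitals, followed by that of Ncl, an abundant member whose window holds no CACGTG.
Wdr43, chr17:71615965-71616264, forward strand: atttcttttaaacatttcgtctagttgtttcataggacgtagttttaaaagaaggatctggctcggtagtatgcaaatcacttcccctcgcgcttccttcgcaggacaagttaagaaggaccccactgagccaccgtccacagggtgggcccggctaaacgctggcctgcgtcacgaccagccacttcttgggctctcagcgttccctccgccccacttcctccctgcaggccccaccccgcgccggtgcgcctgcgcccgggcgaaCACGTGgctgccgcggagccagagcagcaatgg
Mybbp1a, chr11:72441077-72441376, forward strand: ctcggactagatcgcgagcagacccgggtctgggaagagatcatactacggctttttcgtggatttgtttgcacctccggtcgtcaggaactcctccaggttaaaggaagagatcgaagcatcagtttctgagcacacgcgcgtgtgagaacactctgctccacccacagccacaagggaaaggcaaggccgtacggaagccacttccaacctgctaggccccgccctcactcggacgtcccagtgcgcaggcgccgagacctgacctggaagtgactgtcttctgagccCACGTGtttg
Nop2, chr6:125131633-125131932, forward strand: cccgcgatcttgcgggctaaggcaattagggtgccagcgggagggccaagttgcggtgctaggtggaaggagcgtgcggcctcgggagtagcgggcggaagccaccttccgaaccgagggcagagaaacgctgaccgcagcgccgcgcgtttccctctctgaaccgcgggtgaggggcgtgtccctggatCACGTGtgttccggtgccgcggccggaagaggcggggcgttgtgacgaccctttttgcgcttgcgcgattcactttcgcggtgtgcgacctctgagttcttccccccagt
Dnph1, chr17:46496539-46496838, forward strand: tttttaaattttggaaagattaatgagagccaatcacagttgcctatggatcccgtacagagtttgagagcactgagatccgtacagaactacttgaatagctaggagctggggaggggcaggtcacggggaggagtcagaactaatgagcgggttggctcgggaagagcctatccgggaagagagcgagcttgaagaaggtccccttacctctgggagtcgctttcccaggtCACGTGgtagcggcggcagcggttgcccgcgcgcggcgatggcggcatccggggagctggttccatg
Ncl, chr1:86359406-86359705, reverse strand: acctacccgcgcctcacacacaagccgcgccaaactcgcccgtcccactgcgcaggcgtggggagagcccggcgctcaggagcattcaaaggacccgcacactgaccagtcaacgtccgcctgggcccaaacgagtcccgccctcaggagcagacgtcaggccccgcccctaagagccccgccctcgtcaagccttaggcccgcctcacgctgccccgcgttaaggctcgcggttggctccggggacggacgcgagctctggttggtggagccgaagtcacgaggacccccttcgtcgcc
The E-box began at position 18 in Wdr43 and 41 in Mybbp1a, counted from 1 at the transcription start, and at -60 in Nop2 and -17 in Dnph1, upstream of it. The ETS core CCGGAA, on either strand, was in the windows of 17 of the 36 genes (47.2%), against 38.1% of the expressed other genes and 16.7% of the promoter table. TATAAA, on either strand, was in 5.56%, against 8.43% and 15.7%. Matches were counted for each motif on its own, with any overlap between motifs kept. A match describes the letters in the window and does not show binding.

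At steady state in the spleen, the 42 genes were at nearly equal levels under both labels. They summed to 3550 CPM [3528, 3573] in the ICOS WT library and 3588 CPM [3566, 3611] in the ICOS FC library, a 1.01-fold difference (1.00-fold without the cells with shared barcodes). The median log2 ratio of ICOS FC over ICOS WT was 0.00 over all 42 genes, from -0.24 for Utp20 to 0.33 for Dnph1, and -0.02 over the 5105 genes with at least 20 CPM in a spleen library. A gene was called when a library of the pair reached 20 CPM, the 2 levels differed at least 1.5-fold, and the interval left out equality. None of the 42 was called in either direction, where 0.588% of all genes were called higher and 0.255% lower. The ratio was above 1 for 21 of 42, against 42.4% of all genes. Intervals lay above equality for 5 of the 42 and below it for 8, against 15.3% and 23.1% of all genes. None was at least 1.2-fold higher with an interval above equality (2.92% of all genes).

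In the challenged lymph node, the 42 genes were higher as a group in the library labelled ICOS FC, each by a modest amount. They summed to 4298 CPM [4265, 4332] under ICOS WT and 5362 CPM [5327, 5396] under ICOS FC, a log2 ratio of 0.32 [0.30, 0.33] or 1.25-fold. Without the cells with shared barcodes the sums were 4169 and 4975 CPM, 1.19-fold. The ratio was above 1 for 41 of the 42 genes, all but Mthfd2, where 43.0% of 5506 genes lay above 1. The members' median log2 ratio was 0.32 and that of all genes -0.03. None of the 42 was called at 1.5-fold, where 1.11% of all genes were called higher and 1.05% lower. Intervals lay above equality for 34 of the 42 (31 of the 38 that had 20 CPM in a library) and below it for 0, against 20.4% and 27.7% of all genes. At least 1.2-fold with such an interval was reached by 28 of 42 (25 of the 38), against 7.79% of all genes. Without the cells with shared barcodes the members' LN median was 0.25, 41 of 42 ratios were above 1 (41.6% of all genes), and 30 intervals lay above equality and 1 below (Mthfd2), against 17.8% and 26.7% of all genes. The count at 1.2-fold was then 17 of 42, against 6.17% of all genes. The intervals of Pus7, Nop14, Noc2l and Dnph1 no longer lay above equality, and 36 of the 42 ratios stayed within their interval from all cells. With all cells, all 42 genes had a larger ratio in the LN pair than in the spleen pair, and the share of all genes that did so was not counted. Scaling by TMM or DESeq2 size factors moved the members' LN median to 0.38 under both, and that of all genes to 0.02 and 0.03.

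**Figure D1:**
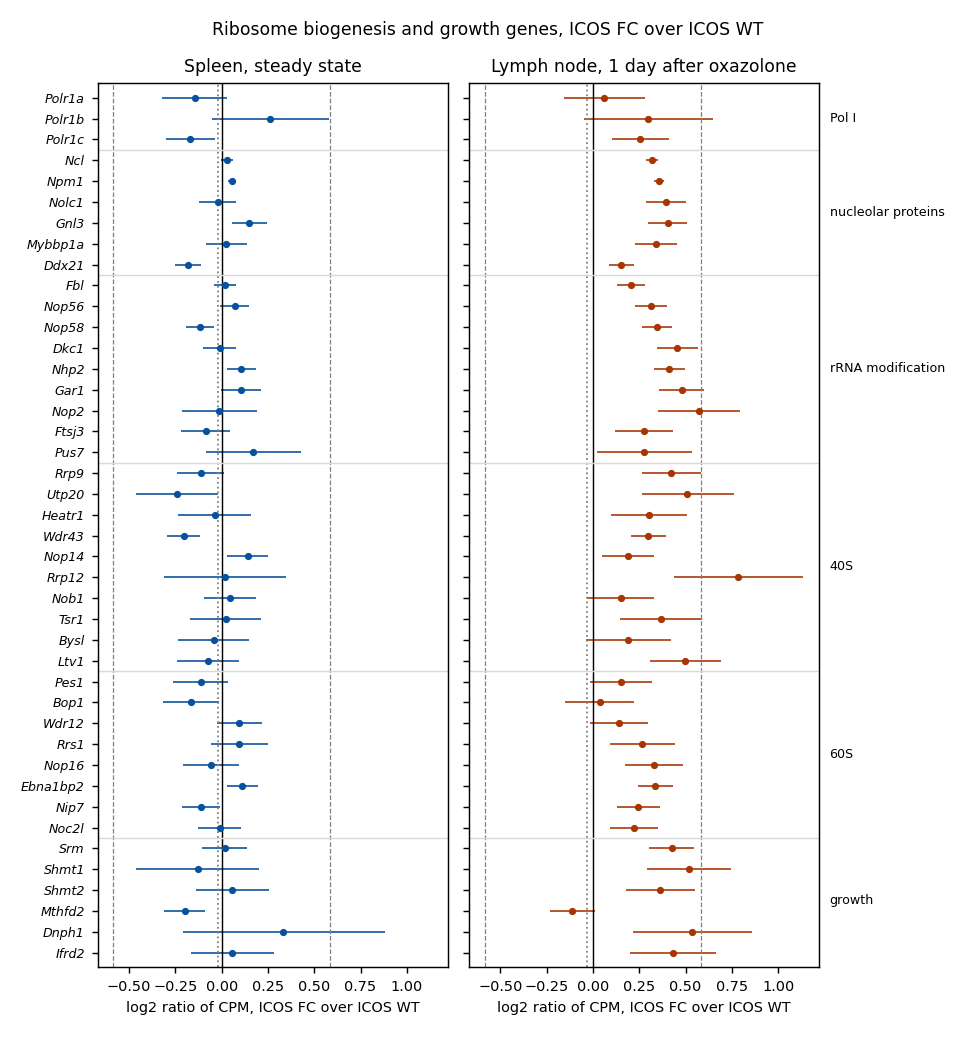
Each of the 42 genes (rows, by role) as a log2 ratio between the labels, ICOS FC over ICOS WT, in the spleen (left) and the LN (right), 1 library a group. Bars are 95% counting intervals, dashed lines mark 1.5-fold and the dotted line the median of all genes; spleen points centre on 0.00 and LN points on 0.32, with Mthfd2 at -0.11.

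Among the RNA polymerase I subunits, Polr1c, shared with RNA polymerase III, had 35.6, 31.6, 39.7 and 47.4 CPM. Polr1a, the largest subunit, had 20.5, 18.5, 21.3 and 22.3 CPM, and its 4 libraries lay close together. Polr1b, the second largest, was low at 5.67, 6.79, 7.98 and 9.81 CPM. In the LN the log2 ratios of ICOS FC over ICOS WT were 0.26 [0.10, 0.41] for Polr1c, 0.06 [-0.16, 0.28] for Polr1a and 0.30 [-0.05, 0.65] for Polr1b. Of the 3, Polr1c alone had an interval clear of equality. The group summed to 69.0 and 79.5 CPM in the LN, 1.15-fold.

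The nucleolar proteins held most of the UMIs. Npm1 (nucleophosmin), a histone and ribosome chaperone that shuttles out of the nucleolus, had 1336, 1387, 1279 and 1638 CPM. Its level was alike in the first 3 libraries and highest in the LN ICOS FC library, with an LN log2 ratio of 0.36 [0.33, 0.38]. Ncl (nucleolin), which binds the nascent rRNA transcript, had 497, 507, 816 and 1017 CPM. It stepped up from spleen to LN under both labels and again from ICOS WT to ICOS FC in the LN (0.32 [0.29, 0.35]). Ddx21, an RNA helicase of the nucleolus, had 125, 110, 226 and 251 CPM. Ddx21 was lower in the spleen ICOS FC library (-0.18 [-0.25, -0.11]) and higher in the LN one (0.15 [0.09, 0.22]). The other members, Nolc1, Gnl3 and Mybbp1a, had LN ratios of 0.40, 0.40 and 0.34. All 6 intervals of the group lay above equality in the LN, and the group's sum was 1.26-fold higher.

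The rRNA modification factors were also higher throughout the LN pair, with all 9 intervals above equality and a summed difference of 1.27-fold. Fbl (fibrillarin), the methyltransferase of box C/D RNPs, had 157, 159, 159 and 183 CPM. The first 3 libraries were within a narrow range and the LN ICOS FC library lay above them. Nop58, a core protein of the same particles, had 105, 96.8, 140 and 178 CPM, and its partner Nop56 had 98.3, 103, 128 and 159 CPM. Their LN ratios were 0.34 [0.26, 0.43] and 0.31 [0.23, 0.40]. The box H/ACA proteins of this group gave larger LN ratios: 0.46 for Dkc1, the pseudouridine synthase, 0.41 for Nhp2 and 0.48 for Gar1. Nop10, a further box H/ACA protein, was not placed in this group but in the list of other small subunit factors given below. Its LN ratio was smaller, 0.12 [0.05, 0.18]. Nop2, an rRNA cytosine methyltransferase, had 14.7, 14.5, 17.9 and 26.7 CPM and an LN ratio of 0.57 [0.35, 0.79], just under 1.5-fold. Nop2 passed 1.5-fold with TMM factors (1.54-fold) and with DESeq2 size factors (1.55-fold), and is named because of these values. Ftsj3 and Pus7, a methyltransferase and a pseudouridine synthase, had ratios of 0.27 and 0.28.

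Among the 40S factors, Wdr43, a component of the processome, had 77.1, 66.9, 101 and 124 CPM. It was lower in the spleen ICOS FC library (-0.21 [-0.30, -0.12]) and higher in the LN ICOS FC library (0.30 [0.20, 0.39]). Nop14, a processome protein, had 44.7, 49.2, 47.9 and 54.6 CPM, a narrow range with an LN ratio of 0.19 [0.05, 0.33]. Rrp9, a U3 RNP protein, had 37.4, 34.5, 35.1 and 47.0 CPM. The LN ICOS FC library stood alone above the other 3, with an LN ratio of 0.42 [0.26, 0.58]. Rrp12, a factor in export of the subunits, was named after its values were seen because its LN ratio was the largest of the 42. It had 151, 159, 105 and 208 UMIs, or 5.55, 5.63, 6.98 and 12.0 CPM, and an LN ratio of 0.78 [0.44, 1.13], below the minimum of 20 CPM. The remaining Utp20, Heatr1, Tsr1, Bysl, Nob1 and Ltv1 had LN ratios from 0.15 (Nob1) to 0.51 (Utp20). In all, 8 of the 10 had intervals above equality in the LN, the exceptions being Nob1 and Bysl, and the group summed to 1.25-fold.

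The 60S factors had the lowest median LN ratio of the 6 groups, 0.23 (0.16 without the cells with shared barcodes, again the lowest). Ebna1bp2, an assembly factor of early 60S particles, had 76.4, 82.6, 104 and 131 CPM. It was higher in the LN than in the spleen and highest in the LN ICOS FC library (0.34 [0.24, 0.43]). Nip7, a 60S biogenesis factor, had 59.9, 55.5, 71.6 and 84.9 CPM (LN ratio 0.25 [0.13, 0.36]), and Noc2l, a NOC family protein that is also known as a repressor of histone acetylation, had 42.4, 42.1, 57.2 and 66.7 CPM (0.22 [0.09, 0.35]). The PeBoW complex of Pes1, Bop1 and Wdr12, needed for processing of the 60S rRNAs, showed less difference. The LN ratios were 0.15 [-0.02, 0.32], 0.04 [-0.15, 0.22] and 0.14 [-0.02, 0.30], none clear of equality. Rrs1 and Nop16 had 0.27 and 0.33. The group summed to 1.18-fold.

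The growth genes had the highest median LN ratio, 0.43, and also the exception. Their median was 0.28 without the cells with shared barcodes, under that of the nucleolar proteins (0.29), and the LN ratios of Srm, Shmt1, Dnph1 and Ifrd2 were 0.24, 0.31, 0.31 and 0.26. Srm (spermidine synthase) had 39.0, 39.5, 60.1 and 80.7 CPM. The spleen pair was level, and the LN pair was higher and unequal (0.43 [0.30, 0.55]). Shmt2, the mitochondrial serine hydroxymethyltransferase that feeds one-carbon units from serine, had 15.3, 16.0, 26.6 and 34.2 CPM. Its cytosolic partner Shmt1 had 5.85, 5.34, 17.1 and 24.5 CPM. Both had a level spleen pair and a higher LN pair, with LN ratios of 0.36 [0.18, 0.55] and 0.52 [0.29, 0.74]. Mthfd2, the next mitochondrial enzyme of that path, had 53.3, 46.4, 72.8 and 67.5 CPM, and was the one member not higher in the LN ICOS FC library (-0.11 [-0.23, 0.01]). Dnph1, a nucleotide hydrolase known as a MYC target, was named after its values were seen. It had 52, 68, 131 and 219 UMIs (1.91, 2.41, 8.71 and 12.6 CPM) and an LN ratio of 0.54 [0.22, 0.86]. Ifrd2 had an LN ratio of 0.43.

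With all cells, the 42 genes were higher in the challenged LN than in the steady-state spleen, and more so under the ICOS FC label. Under ICOS WT the members' median was near or below that of all genes in some other settings, given in the closing section. Tissue, challenge and library cannot be told apart here. Their sum was 1.21-fold higher under ICOS WT and 1.49-fold under ICOS FC (1.17-fold and 1.40-fold without the cells with shared barcodes). The median log2 ratio was 0.38 under ICOS WT and 0.66 under ICOS FC, against 0.13 for all genes under both. Ratios above 1 were found for 39 of 42 and 42 of 42 with library totals (66.4% and 63.5% of all genes), and for 28 to 30 and 39 to 40 with the other scalings, which lowered the median of all genes to between -0.05 and 0.00. Intervals lay above equality for 27 and 40 of the 42, against 49.5% and 49.8% of all genes, and below it for 1 and 0, against 19.2% and 24.7%. Without the cells with shared barcodes the medians were 0.32 and 0.57, with 37 and 41 ratios above 1 and 25 and 39 intervals above equality. The shares of all genes were then 66.4% and 63.2% for ratios, and 49% and 48.2% for intervals. The LN-over-spleen ratio was larger under ICOS FC for all 42, which is the same fact as the larger LN genotype ratio because the comparisons share their libraries. The share of all genes was not counted here either. With 2-fold as the limit, 0 members were called under ICOS WT (background 5.33% higher, 0.471% lower). Under ICOS FC, 5 were called higher, Ncl, Ddx21, Srm, Shmt1 and Shmt2, and 0 lower (background 5.90% and 0.676%). Their ratios were 2.01-fold for Ncl, 2.27-fold for Ddx21, 2.05-fold for Srm, 4.59-fold for Shmt1 and 2.14-fold for Shmt2. Under the TMM, DESeq2 and non-ribosomal scalings Ddx21 and Shmt1 stayed above 2-fold and the other 3 did not, and the same 2 were called without the cells with shared barcodes. Ddx21 alone was called among G1 cells and with the 5% of cells richest in UMIs left out. No member was called in thinned cells, by the mean CPM over cells, or without spleen cluster 5 and LN cluster 4, which are described below.

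By role, the growth genes differed most between spleen and LN in their summed level, higher in the LN by 1.59-fold under ICOS WT and 1.99-fold under ICOS FC. The other 5 groups lay between 1.12-fold (RNA polymerase I) and 1.26-fold (60S) under ICOS WT, and between 1.40-fold and 1.49-fold under ICOS FC. Dnph1, under the minimum level, had ratios of 4.55-fold and 5.25-fold. Npm1 and Fbl, abundant in both tissues, differed little under ICOS WT, at log2 ratios of -0.06 [-0.09, -0.04] and 0.01 [-0.06, 0.09].

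The members' summed level per UMI was highest in a small cluster of each tissue. The deposited cluster numbers were kept without names, and numbers do not correspond between tissues. In the LN, cluster 4 (138 and 217 cells, 7.27% and 10.5% of the ICOS WT and ICOS FC cells) summed to 11909 CPM [11769, 12050] and 12580 CPM [12464, 12697]. The other LN clusters ran from 2388 CPM (cluster 0, ICOS WT) to 5268 CPM (cluster 6, ICOS FC). Cluster 4 supplied 42.6% and 48.3% of all member UMIs from 15.4% and 20.6% of the library's UMIs. In the spleen, cluster 5 (192 and 228 cells) summed to 8975 CPM [8831, 9121] and 9430 CPM [9284, 9579], and the others ran from 2647 to 3602 CPM. Spleen cluster 5 supplied only 15.3% and 15.6% of the member UMIs, from 6.05% and 5.93% of the library's. The larger spleen cluster 0 supplied 38.2% and 34.1%. LN cluster 4 supplied 41.7% and 42.5% of the member UMIs, from 14.7% and 18.0% of the library's, when the cells with shared barcodes were left out. The sources used here do not give the genes that entered the clustering, so a cluster against the rest is given as a description.

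**Figure D2:**
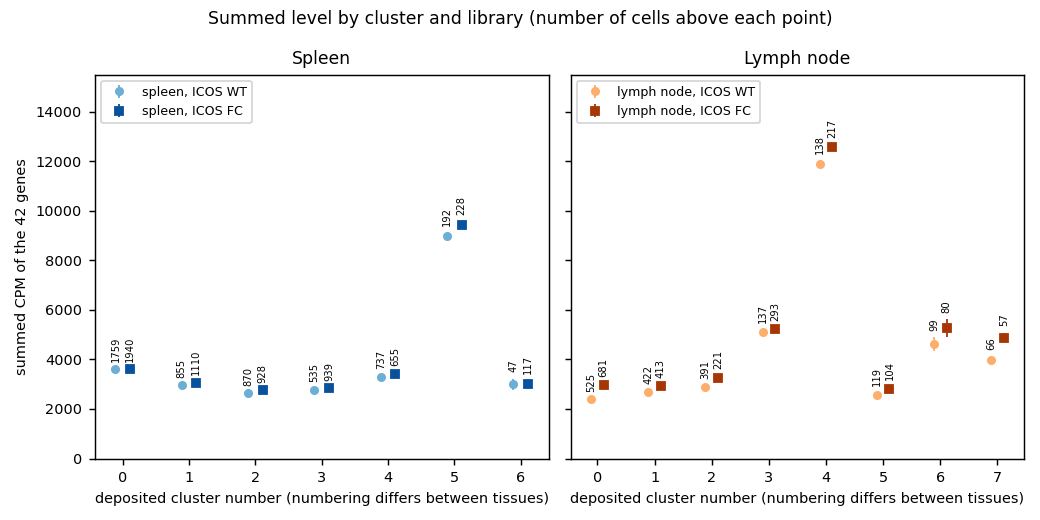
Summed CPM of the 42 genes (vertical axis) in each deposited cluster (horizontal axis) of the spleen (left) and LN (right), by library, with 95% counting intervals, mostly smaller than the symbols, and cell numbers above. Spleen cluster 5 and LN cluster 4 stand at 8975 to 12580 CPM, above every other cluster of their tissue.

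Cells of these clusters also held more RNA. LN cluster 4 had medians of 13389 and 12166 UMIs per cell and spleen cluster 5 had 7186 and 5923, above the library medians. With every cell thinned to 2000 UMIs, the median cell carried 21 member UMIs in LN cluster 4 under both labels, 13 and 16 in spleen cluster 5, and 4 to 10 in the other clusters with at least 50 cells. The unthinned sums and the thinned medians thus gave the same top clusters. In all cells thinned, 20 or more member UMIs were found in 1.53%, 1.63%, 4.87% and 6.73% of cells, leaving out 89, 155, 69 and 59 shallower cells. In the deposited phase calls 35.5% and 31.3% of LN cluster 4 cells were in S phase. Its fold over the other cells was 3.88 and 3.45 among G1 cells alone and 4.09 and 3.60 among all cells.

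Nearly every member took part. In LN cluster 4, all 42 genes were above the other cells under both labels, where 52.9% and 55.2% of all genes were. At least 2-fold above was reached by 41 of 42 under both labels, against 14.0% and 12.5% of all genes. In spleen cluster 5 all 42 were above (53.0% and 54.0% of all genes), and 38 and 40 were at least 2-fold above (8.21% and 9.04%). Shmt1 was the most concentrated. It had 83.3 CPM in LN cluster 4 against 5.11 CPM in the other cells under ICOS WT (16.3-fold), and 85.5 against 8.72 CPM under ICOS FC (9.81-fold). In spleen cluster 5 its folds were 18.3 and 15.7. In the LN, Srm (9.89-fold) and Pus7 (9.67-fold) followed under ICOS WT, and Dnph1 (7.26-fold) and Srm (7.25-fold) under ICOS FC, where Pus7 was at 6.25-fold. Ncl reached 2562 and 2692 CPM in LN cluster 4 (5.15-fold and 4.62-fold), and Npm1 3147 and 3400 CPM (3.35-fold and 2.88-fold). Mthfd2 was nearly flat, at 1.26-fold and 1.27-fold in the LN and 1.20-fold and 1.23-fold in the spleen. Without the cells with shared barcodes the LN counts of 42 above and 41 at least 2-fold above were found again under both labels, and Shmt1 was 17.8-fold and 8.86-fold above the other LN cells.

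**Figure D3:**
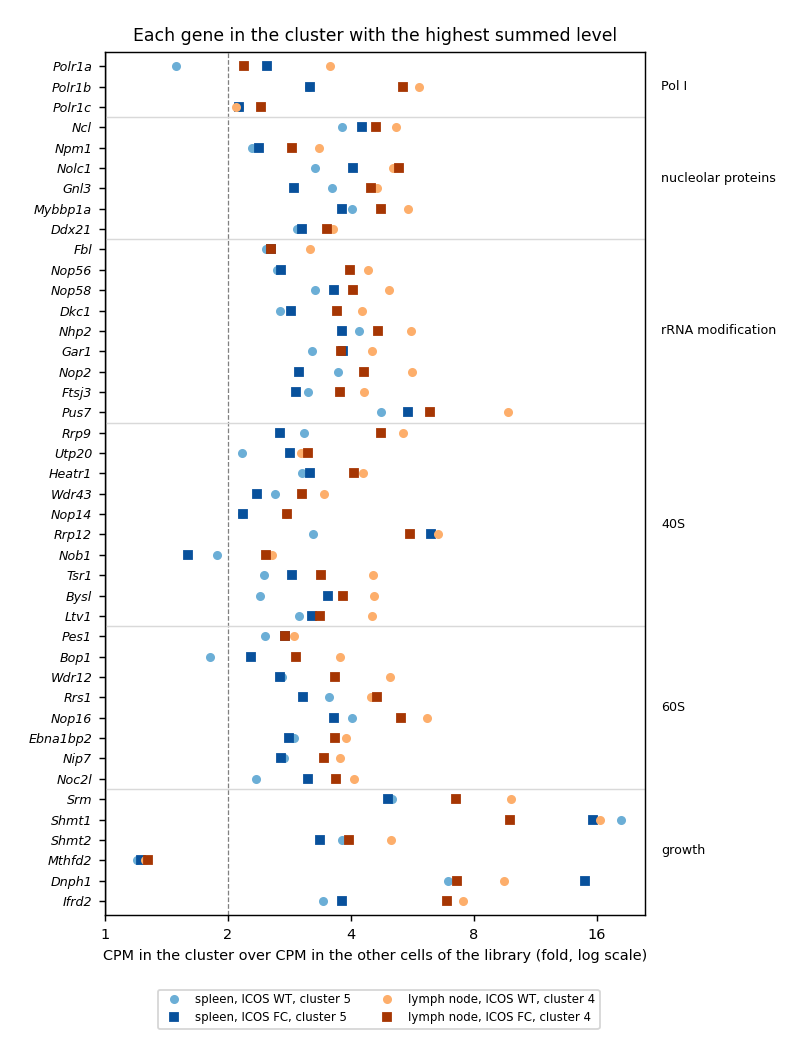
For each of the 42 genes (rows, by role), CPM in spleen cluster 5 or LN cluster 4 over CPM in the other cells of the same library, on a log axis, with 1 point per library and no error shown. The dashed line marks 2-fold; Shmt1 lies at 9.81 to 18.3 and Mthfd2 at 1.20 to 1.27.

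Within clusters, the members' LN difference between the labels was smaller in most clusters than in the library as a whole. The summed ratio of ICOS FC over ICOS WT was 1.25-fold in cluster 0 (2388 and 2985 CPM), 1.23-fold in cluster 7, 1.14-fold in cluster 6 and 1.13-fold in cluster 2. It was 1.09-fold in clusters 1 and 5, 1.06-fold in cluster 4 and 1.02-fold in cluster 3, where the interval of the log2 ratio reached equality (0.03 [-0.01, 0.08]). In cluster 4, 18 of the 217 ICOS FC cells and 7 of the 138 ICOS WT cells had a shared barcode. Without them its sums were 11782 and 11796 CPM for ICOS FC and ICOS WT, a log2 ratio of 0.00 [-0.02, 0.02]. The 34 cells of the LN ICOS FC library with a shared barcode summed to 13865 CPM and the 46 of the ICOS WT library to 8370 CPM; their part in the result beyond these values was not tested. Without such cells the ratios of the other LN clusters ran from 1.06-fold (cluster 3) to 1.27-fold (cluster 0). In the spleen, with all cells, the summed ratios within clusters 0 to 5 ran from 0.999-fold to 1.05-fold.

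The mix of clusters differed too. LN cluster 3, with 5093 and 5211 CPM of the members, held 7.22% of ICOS WT and 14.2% of ICOS FC cells, and cluster 4 was also larger under ICOS FC. With ICOS WT levels in each cluster and the ICOS FC mix of UMIs, the LN sum was 4900 CPM, 1.14-fold above the ICOS WT sum. With ICOS FC levels and the ICOS WT mix it was 4759 CPM, 1.11-fold above. Both changes together gave the observed 1.25-fold. Leaving out the cells with shared barcodes, these were 1.10-fold for the mix, 1.09-fold for the levels and 1.19-fold for both. The values are a description of the deposited clusters. At the ICOS WT mix the members' median log2 ratio in the LN was 0.13, with 35 of 42 above 1, and with clusters weighted equally it was 0.13, with 36 of 42. The medians of all genes were -0.03 and -0.02, and the shares of all genes above 1 were not counted in these settings.

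Few members were called within a cluster. In LN cluster 7, with 66 and 57 cells, 6 were called higher, Npm1, Nolc1, Dkc1, Nhp2, Pus7 and Noc2l, of the 36 with 20 CPM in a library, against 3.73% of all genes. The other LN clusters had 0 to 2 called higher of 25 to 42 members at that level, against 1.24% to 5.03% of all genes, which gives no result about the members. They were Ltv1 in cluster 0 (1.79% of all genes), Srm in cluster 1 (1.24%), Gnl3 and Rrp9 in cluster 2 (3.49%), Shmt2 in cluster 3 (5.03%), Polr1a in cluster 5 (3.11%) and Rrp12 in cluster 6 (3.36%), and none in cluster 4 (2.94%). LN clusters 2, 3, 5 and 6 had 1 each called lower, Nop14, Nob1, Bop1 and Mthfd2, against 4.77%, 1.83%, 3.48% and 3.65% of all genes. In the spleen, Rrp12 was called higher in cluster 5 (2.5% of all genes) and Wdr43 lower in cluster 3 (1.65%).

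Leaving out the top clusters lowered the members' LN-over-spleen ratios. These clusters were picked for their high member level, and LN cluster 4 held the larger share of member UMIs. A fall was therefore set by the choice and tests nothing. Without spleen cluster 5 and LN cluster 4 the members' median LN-over-spleen log2 ratio was -0.12 under ICOS WT, with 12 of 42 above 1, and 0.17 under ICOS FC, with 29 of 42 above 1. The medians of all genes were 0.10 and 0.086, and the shares of all genes above 1 were not counted in this setting. The sums were then 3201 and 2914 CPM for spleen and LN under ICOS WT (0.910-fold) and 3220 and 3491 CPM under ICOS FC (1.08-fold). The LN difference between the labels was smaller than with all cells, at a median of 0.25 (0.32 with all cells). The summed ratio was 1.20-fold (1.22-fold when the cells with shared barcodes were left out as well). Ratios were above 1 for 41 of 42, and 27 intervals lay above equality (34 with all cells). For this LN difference the median of all genes was -0.04, and the shares of all genes were not counted. Among G1 cells alone the LN-over-spleen median under ICOS WT was 0.00 and under ICOS FC 0.43. The medians of all genes among G1 cells were 0.097 and 0.096.

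**Figure D4:**
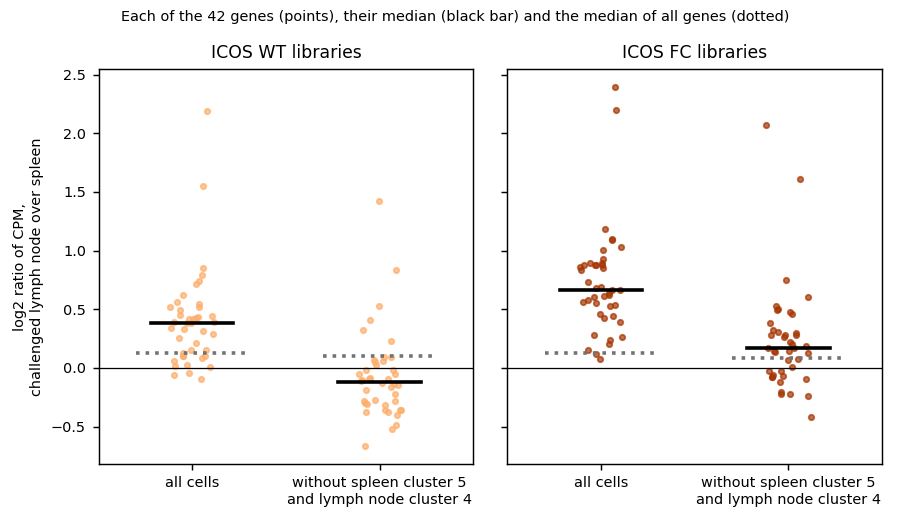
Log2 ratio of CPM, LN over spleen, of each of the 42 genes (points, spread sideways for legibility) under ICOS WT (left) and ICOS FC (right), with all cells and without spleen cluster 5 and LN cluster 4. Black bars are the members' medians, 0.38 and 0.66 with all cells and -0.12 and 0.17 without; dotted bars are the medians of all genes.

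The members' level also moved with the UMIs of a cell. LN cells were ordered by UMIs and split into 4 equal bins. From the fewest UMIs to the most, the sums were 2816, 2716, 2985 and 5926 CPM under ICOS WT and 3264, 3374, 3791 and 7305 CPM under ICOS FC. The last bin stood apart under both labels and held 105 of the 138 and 156 of the 217 cluster 4 cells. Without cluster 4 the bins were at 2659, 2584, 2739 and 3297 CPM, and 3129, 3228, 3275 and 3919 CPM. The ICOS FC library was higher in each bin. By deposited phase, LN sums were 3341 (G1), 7176 (S) and 4133 CPM (G2M) under ICOS WT and 4180, 7975 and 5919 CPM under ICOS FC. Cluster 4 held 49 of the 327 and 68 of the 393 S phase cells, and without it the sums were 2644, 3969 and 2978 CPM under ICOS WT and 3181, 4432 and 3561 CPM under ICOS FC. The S phase sums without the cells with shared barcodes were 6881 and 6960 CPM, nearly level, and those of the last UMI bin 5762 and 6657 CPM. Mki67, a marker of cycling cells, was at 7.14, 10.6, 41.2 and 73.9 CPM in the 4 libraries, and its part in the members' differences was not tested.

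Myc itself, singled out after its values were seen, was at 43.3, 39.3, 62.3 and 92.5 CPM, with log2 ratios of ICOS FC over ICOS WT of -0.14 in the spleen and 0.57 in the LN, under 1.5-fold. LN over spleen it was 2.35-fold higher under ICOS FC, past the 2-fold limit. By LN cluster its order was not that of the members. Myc was highest in LN cluster 7 (229 and 268 CPM), the cluster with the CD8 T and NK cell markers, where the members summed to 3980 and 4880 CPM. Among LN clusters it was next in cluster 4 (145 and 200 CPM). In the spleen Myc was highest in cluster 5, as the members were, at 134 and 78.2 CPM, with cluster 6 close under ICOS FC (71.6 CPM).

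By their medians with all cells, the other lists of the pathway differed less between the LN libraries than the 42. The 42 genes and the lists were chosen with earlier results of these data known, so the comparison tests nothing. The list values include the cells with shared barcodes, without which the members' median was 0.25. By summed level, the serine and one-carbon enzymes were 1.25-fold higher under ICOS FC, as the 42 were. Median log2 ratios of ICOS FC over ICOS WT were 0.11 for 40 other small subunit factors (0 called, 14 intervals above equality and 0 below) and 0.19 for 34 other 60S factors (0 called, 20 above and 0 below). They were 0.02 for 17 other genes of the RNA polymerase I machinery, among them Ubtf, with 0 called. Of 12 serine and one-carbon enzymes (median 0.21), Gcsh, a protein of the glycine cleavage system, was called higher (28.0 and 45.4 CPM, 1.62-fold). Medians were 0.25 for 18 purine and pyrimidine enzymes, 0.03 for 11 polyamine genes, -0.08 for the 11-gene MYC network (9 with UMIs in both libraries) and 0.05 for 17 mTORC1 and amino acid transport genes, with 0 called in each. In the spleen, Ddit4, an inhibitor of mTORC1, was called lower under ICOS FC (180 and 99.1 CPM), and the 8 lists had no other call.

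From spleen to LN, single genes of the same lists were past 2-fold under both labels. Tyms (2.32-fold and 3.02-fold) and Psat1 (2.35-fold and 2.64-fold) serve thymidylate and serine synthesis. Odc1, the first enzyme of polyamine synthesis, was 2.62-fold and 4.06-fold higher. Tfrc, the transferrin receptor, was 2.72-fold and 3.64-fold higher, and the MYC antagonist Mxd1 was 2.70-fold and 2.49-fold higher. Nme2 and Polr2l were called under both labels. Gcsh, Rrp1b and Myc were called higher under ICOS FC alone and Sesn1 lower; whether these differ between the labels was not tested.

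Across 29 points, each a cluster of 1 library with at least 50 cells, the genes outside the 42 whose level was most like the members' sum were C1qbp (r = 0.974), Cct8 (0.973), Rrp15 (0.973), Lyar (0.971), Mrpl12 (0.970), Mrto4 (0.969), Nifk (0.967), Pa2g4 (0.966), Phb (0.962) and Tomm40 (0.962). The measure was Pearson's r of log2(CPM + 1), centred within each tissue, over 5624 candidate genes, whose median r was 0.045 and of which 1.58% reached 0.9. Each member was set against the sum of the other 41 in the same way, and 26 of 42 reached 0.9, with a median of 0.914. Nop58 was highest at 0.978 and Mthfd2 lowest at 0.407. The points share libraries, depth and the same 2 high clusters, so r is given as a description.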

How the data were processed

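Single-cell RNA-seq of sorted Treg cells was deposited as 1 expression table and 1 cell table per tissue. The submitters' processing notes name the build GRCm38.p6 (mm10) and the tools Seurat 3.0, R 3.6.1 and Cell Ranger 4.0.0; what each did, and whether doublets were removed, the sources used here do not give. Expression values, as deposited, are on a natural log scale, log(1 + x), where x is a gene's UMIs scaled to 10000 per cell, as the values themselves show. The cell tables deposited by the authors give the UMI count per cell, the percent of mitochondrial counts (at most 9.99), scores, phases and cluster numbers. Entries reading Control and KO were taken as ICOS WT and ICOS FC from the words alone.

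Each log value was turned back into UMIs with the cell's deposited total. Within 0.001, 100% of the values (17846401 in the spleen, 8798056 in the LN) were whole, and all 10912 and 3963 cell totals were equal to the deposited ones. UMIs were summed per library or cluster and divided by the total (CPM). With 1 library per group no test was run. Log2 ratios carry an exact conditional Poisson interval at 95%, which covers counting error only and leaves out the sampling of cells and animals. Calls needed 20 CPM in a library of the pair, 1.5-fold (2-fold for LN over spleen) and an interval clear of equality; clusters needed 50 cells. A gene with 0 UMIs would allow up to 0.110, 0.106, 0.199 and 0.173 CPM at a limit of 3 counts per library, and every member had at least 52 UMIs in each library. No cell filter or doublet caller was applied here.

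The members and gene lists were chosen with earlier results of these data known. Full values are given for the 3 members of each role group with most UMIs and for members past the rule of size, and others are named as chosen after their values were seen. Pathway genes are named from those past the rule, and 10 genes of like pattern by highest r. Some genes of the marker and pathway lists are not reported here. Alternatives covered scaling (edgeR 4.0.16 TMM, DESeq2 1.42.0 size factors, totals without ribosomal protein and mitochondrial genes), the CPM minimum, cell subsets, thinning and cluster weights. Python 3.11.15, numpy 2.4.6, scipy 1.17.1 and pandas 2.3.3 were used.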

Additional observations from a re-analysis of the deposited data

How the results depend on the processing

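No paired analysis was possible because each group was 1 library, and for the same reason no replicate could be left out. The spleen comparison of the labels stayed at 0 members called, with a median between -0.10 and 0.04, under every alternative run. In the LN, members called higher under ICOS FC went from 0 to 1 with TMM factors, DESeq2 size factors or totals without ribosomal protein and mitochondrial genes (Nop2), to 1 with a minimum of 5 CPM or no minimum (Rrp12), to 1 by the mean CPM over cells (Ltv1), to 1 without spleen cluster 4 and LN clusters 6 and 7 (Utp20), to 2 among G1 cells or cells with a Foxp3 UMI, to 3 with the 5% of cells richest in UMIs left out, and to 4 in thinned cells. The shares of all genes called were not counted under these alternatives, so these counts give no result about the members. The LN median of 0.32 moved to 0.13 with clusters weighted equally and to 0.13 at the ICOS WT cluster mix, and the construction of both removes the difference in cluster mix.

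For LN over spleen under ICOS WT, the median of 0.38 moved to 0.23 with TMM factors, 0.23 with DESeq2 size factors, 0.20 with totals without ribosomal protein and mitochondrial genes, 0.094 with the 5% of cells richest in UMIs left out, 0.00 among G1 cells (-0.0032), -0.12 without spleen cluster 5 and LN cluster 4, 0.16 by the mean CPM over cells and 0.11 in thinned cells. The medians of all genes were 0.11 with the richest 5% of cells left out, 0.097 among G1 cells, 0.13 by the mean CPM and 0.11 in thinned cells. In these settings the members' median under ICOS WT thus lay below or near that of all genes. The count of members called higher went from 0 to 1 with totals without ribosomal protein and mitochondrial genes and to 2 with a minimum of 5 CPM or none. Under ICOS FC, the median of 0.66 moved to 0.52 with TMM factors, 0.54 with DESeq2 size factors, 0.51 with totals without ribosomal protein and mitochondrial genes, 0.46 with the 5% of cells richest in UMIs left out, 0.43 among G1 cells, 0.17 without spleen cluster 5 and LN cluster 4, 0.44 by the mean CPM over cells and 0.39 in thinned cells. The 5 called went to 2 with TMM factors, DESeq2 size factors, totals without ribosomal protein and mitochondrial genes or without cells with shared barcodes, to 1 with the 5% of cells richest in UMIs left out or among G1 cells, and to 0 without the top clusters, in thinned cells and by the mean CPM over cells. It was 7 with a minimum of 5 CPM or none. The shares of all genes called were not counted under these alternatives, so the counts give no result about the members. Under ICOS FC the medians of all genes were 0.10 (richest 5% left out), 0.096 (G1 cells), 0.12 (mean CPM) and 0.11 (thinned cells). The cause of these moves was not tested.

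The fold of LN cluster 4 over the other cells, 4.09 and 3.60 under ICOS WT and ICOS FC, was 3.97 and 3.45 by the mean CPM over cells, 3.88 and 3.45 among G1 cells, 4.22 and 3.50 in thinned cells, 4.20 and 3.76 without Ncl and Npm1, and 4.14 and 3.38 without cells with shared barcodes. That of spleen cluster 5, 2.80 and 2.93, was 2.59 and 2.72, 2.61 and 2.54, 2.59 and 2.71, 2.93 and 3.01, and 2.81 and 2.83 under the same alternatives. The alternatives that leave out cells with shared barcodes or clusters, and the ICOS WT mix, were chosen after seeing the data. Depth limits Rrp12, Dnph1, Polr1b and Pus7, which stayed under 20 CPM in all 4 libraries.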

Other observations

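The cytosolic ribosomal protein genes, whose products most of the 42 genes help to assemble, did not move with them between tissues. Their 78 genes made up 38.6%, 38.7%, 31.5% and 32.7% of the UMIs in the spleen ICOS WT, spleen ICOS FC, LN ICOS WT and LN ICOS FC libraries. LN over spleen, their summed log2 ratios were -0.29 under ICOS WT and -0.24 under ICOS FC, with 62 and 60 of the 78 intervals below equality, while the 42 genes summed to 0.28 and 0.58. Levels are shares of a library's UMIs, so a smaller share for these 78 genes raises the other genes, and the 2 movements are not independent. With totals without ribosomal protein and mitochondrial genes, the members' medians were 0.20 and 0.51, against -0.05 and -0.03 for all genes. In the LN pair the ribosomal protein genes differed by 0.06 on the log2 scale, ICOS FC over ICOS WT, against 0.32 for the 42 genes.

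Sesn1 and Ddit4, stress-induced inhibitors of mTORC1 signalling, were at lower levels in the LN than in the spleen. Sesn1 had 52.6, 54.6, 27.2 and 25.2 CPM, and Ddit4 had 180, 99.1, 98.2 and 71.4 CPM.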
